A study of Mus musculus with 24 samples.

Results

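The genes described here are 10 that encode chaperones, disulfide isomerases and lectins of the endoplasmic reticulum (ER), together with transcription factors of the ER stress response. They are Hspa5, Hsp90b1, Pdia3, Pdia4, Pdia6, Calr, Canx, Xbp1, Atf4 and Ddit3, chosen by symbol for what they encode and found through the platform annotation. The choice was made with earlier results of these data known. All 10 were among the 19938 genes that the array names with a single symbol, and all 10 passed the filter on dim genes that left 13311 for testing. The filter asked for 4 or more of the 24 arrays above 2.56, the median of the whole table. Gene expression was measured with Affymetrix Mouse Gene 1.0 ST arrays in blastocysts of outbred NMRI mice, collected on day 3.5 after mating. Obese parents had been on a high-fat, high-calorie diet since they were 3 weeks old, for 9 weeks, and lean parents on a control diet, which all animals ate during mating at 12 weeks. An array measured the pooled lysate of 3 embryos that shared their sex and their mother. Embryos of obese mothers and lean fathers, of lean mothers and obese fathers, and of lean parents were analysed as males (XY) and females (XX), with 4 arrays in each of the 6 groups. The labels name 7 animals on the high-fat diet and 14 on the control diet but tie no pool to a mother or father. With no more animals than that, mothers must have been shared among the 8 obese-mother pools and among the 16 lean-mother pools, and p-values measure the spread between pools only. In pools of whole embryos, fewer cells of a type and less RNA per cell cannot be told apart.

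Proteins that are secreted or placed in membranes fold in the lumen of the ER. Hspa5 (BiP) holds unfolded chains there and also binds the stress sensors IRE1, PERK and ATF6. When unfolded protein accumulates, IRE1 splices the Xbp1 messenger, PERK favours translation of Atf4, which in turn raises Ddit3 (CHOP), and ATF6 is cleaved into a transcription factor. Spliced XBP1 and ATF6 raise genes of ER folding, and cleaved ATF6 acts with the factor NF-Y at the ER stress response element. The array gives 1 value for Xbp1 and does not separate its spliced form, and neither translation nor cleavage is read by it.

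The promoter sequences are shown because several of these genes share a letter pattern, the ER stress response element. ATF6, which acts at this element, raises genes of ER folding, and many members were chosen as such genes. The share of members with the element is therefore a description and no independent test. RefSeq promoters (GRCm38.p6, 250 bases before to 50 after the start of transcription) were found for all 10 members, 1 each. The element was searched as CCAAT, 9 bases of any kind and CCACG, on both strands. It was present in 39 of 32851 promoters, 0.119%, and in 5 of the 10 members: Hspa5, Hsp90b1, Pdia6, Calr and Canx. Hsp90b1 held a pair of copies. The copies are printed 5′ to 3′ in the orientation of the motif, with its fixed letters in capitals.
Hspa5, chr2:34772025-34772043, plus strand: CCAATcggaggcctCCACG
Pdia6, chr12:17266491-17266509, plus strand: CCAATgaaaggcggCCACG
Hsp90b1, chr10:86705638-86705656, minus strand: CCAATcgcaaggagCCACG
Hsp90b1, chr10:86705533-86705551, plus strand: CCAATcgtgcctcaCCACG
Canx, chr11:50325800-50325818, minus strand: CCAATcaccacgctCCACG
Calr, chr8:84847075-84847093, plus strand: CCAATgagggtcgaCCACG
The copies share the outer letters and differ in the spacer. In Hspa5 the copy lay 65 to 47 bases before the start, and in Pdia6 it lay 98 to 80 bases before it.

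To show the element in place, the 150 bases before the start of Hspa5, a gene often used to follow the response, and of Pdia6, the member with the smallest p in the comparison of obese-father and lean-parent males, are given with the same letters in capitals.
Hspa5, chr2:34771940-34772089, plus strand: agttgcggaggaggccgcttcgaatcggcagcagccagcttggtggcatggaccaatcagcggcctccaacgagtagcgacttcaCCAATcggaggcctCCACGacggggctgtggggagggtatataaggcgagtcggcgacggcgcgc
Pdia6, chr12:17266439-17266588, plus strand: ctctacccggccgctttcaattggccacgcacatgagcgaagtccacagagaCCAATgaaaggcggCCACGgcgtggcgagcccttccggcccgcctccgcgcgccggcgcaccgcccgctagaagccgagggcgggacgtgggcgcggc
Both stretches read toward the gene. Of the other motifs searched, ERSE-II (ATTGG, 1 base of any kind and CCACG) stood in 0.0365% of promoters, the core of the XBP1 element (TGACGTGG) in 0.676% and the core bound by C/EBP and ATF factors together (TGATGNAA) in 3.97%, and 0 of the 10 members held any of them in this window. The parts of the element alone are common: CCACG stood in 32.8% of promoters and 7 members, and CCAAT in 37.4% and 9 members. A match describes these letters only.

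All levels are log2 values, and levels of different probe sets are not compared as amounts of RNA. Array means lay within a narrow band, between 2.82 and 2.86, but the standard deviation of all log2 values on an array, called its signal spread here and computed without the members' probe sets, ranged from 1.27 to 1.81. In males the spread averaged 1.56 ± 0.105 in the obese-father group, against 1.38 ± 0.123 in the lean-parent group (SD, n = 4 each, exact permutation test, two-sided, p = 0.114, where 0.0286 is the smallest p possible). Of the markers of the trophectoderm, 6 of 7 had a mean above the table's median, with Elf5 (2.33) below it, and so did 7 of 7 markers of the inner cell mass and primitive endoderm. Markers of blood cells did so for 0 of 5, of cumulus cells for 5 of 11, of uterine and oviduct epithelium for 2 of 5 and of sperm for 3 of 4. As a check of the sex labels, the Y-linked Eif2s3y lay between 1.41 and 3.12 on male arrays and between 1.10 and 1.67 on female arrays. The differences were smaller or of the other sign for 2 more Y-linked genes. Kdm5d averaged 1.77 in males and 1.68 in females of obese mothers, 1.52 and 1.71 in those of obese fathers and 1.88 and 1.99 in those of lean parents, and Uty 1.93 and 1.85, 1.79 and 1.72, and 2.08 and 1.67 in the same order. Xist, the RNA of the inactive X, averaged 2.34 ± 0.33 in males and 2.42 ± 0.28 in females of obese fathers (SD, n = 4 each), against 1.97 and 2.87 in males and females of obese mothers and 2.07 and 2.92 in those of lean parents. Its ranges overlapped between the sexes for all 3 kinds of parents, so Xist and these Y-linked genes did not by themselves separate every male from every female array.

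Among the comparisons with lean parents, the members' median lay farthest from 0 for obese fathers in male embryos. Of the 10 members, 9 had a log2 fold change above 0, against 33.3% of all genes tested, and the members' median was 0.52 against -0.11 for all genes. None passed an adjusted p of 0.05 in limma, where 0.00751% of genes, the single gene Snord47, did. At an unadjusted p under 0.05, 4 members (Hsp90b1, Pdia6, Canx and Xbp1) were higher, against 4.30% of all genes, and 0 were lower, against 10.4%. The groups did not overlap for 1 member, Pdia6, against 1.91% of genes with all obese-father arrays higher.

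Of the 10 members, Hsp90b1 had the largest fold change in this comparison. Hsp90b1 (GRP94), the HSP90 of the ER lumen, measured 6.55, 6.71, 7.03 and 7.98 on the arrays of obese-father males, against 4.40, 5.11, 7.25 and 3.79 on those of lean-parent males. A single lean-parent array, number 3, lay among the obese-father arrays, and the other 3 lay below all of them. Its mean was 7.06 ± 0.64 in obese-father males, against 5.14 ± 1.51 in lean-parent males (SD, n = 4 each), a log2 fold change of 1.93 (SE 0.82) or 3.80-fold, with an adjusted p of 0.318 in limma and a 95% interval from 0.22 to 3.64. Hspa5, the HSP70 of the lumen, measured 5.15, 4.50, 5.25 and 6.46 in obese-father males, against 4.11, 4.40, 6.34 and 3.89 in lean-parent males. Lean-parent array 3 again lay among the obese-father arrays, next to array 12, and the other 3 lean-parent arrays lay just below them. The log2 fold change of Hspa5 was 0.65 (SE 0.51, adjusted p = 0.493, 95% interval -0.41 to 1.71).

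**Figure D1:**
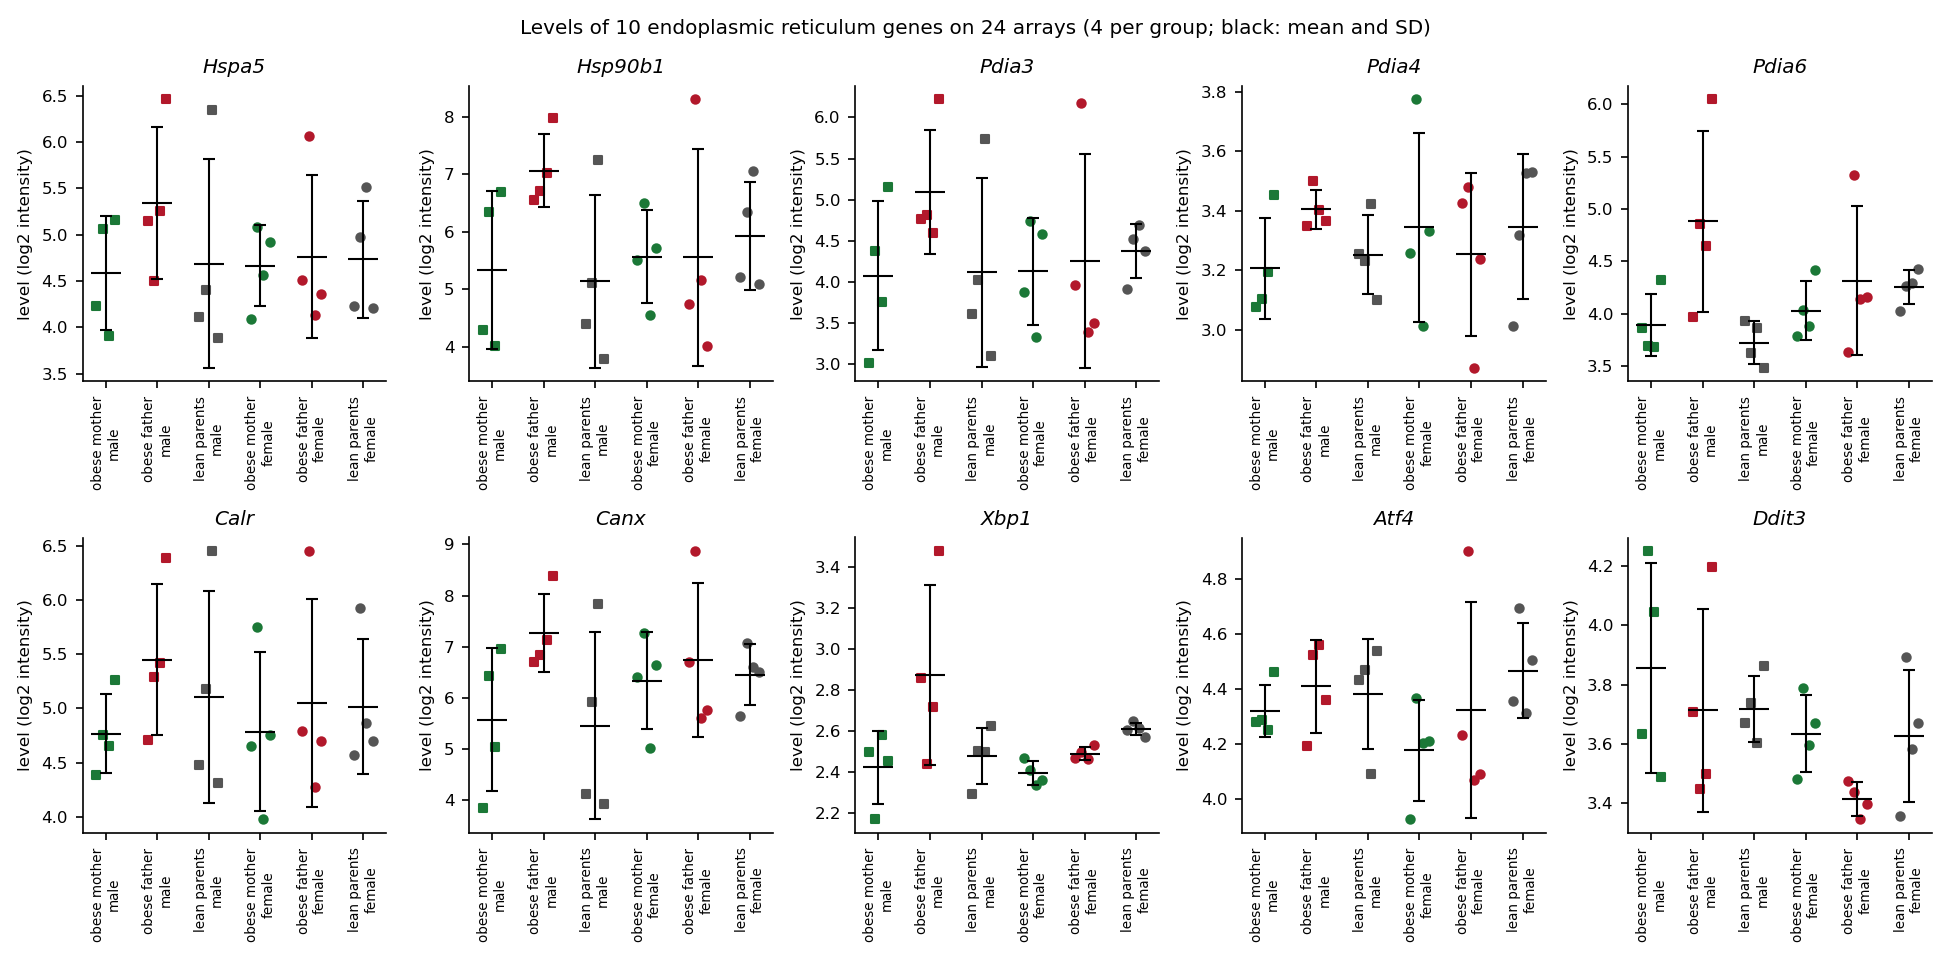
Log2 level of each of the 10 members on each of the 24 arrays, with the groups from left to right as obese mother, obese father and lean parents in each sex; points are arrays, and the bar is the mean with its SD (n = 4). Hsp90b1 runs from 3.79 to 8.30 over the arrays and Canx from 3.85 to 8.87, while Pdia4 stays between 2.87 and 3.77.

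Among the disulfide isomerases, which form and rearrange the disulfide bonds of folding proteins, Pdia6 (P5) separated the groups. It measured 3.97, 4.86, 4.65 and 6.05 in obese-father males, against 3.94, 3.62, 3.86 and 3.48 in lean-parent males. The lowest obese-father array lay only just above the highest lean-parent array, and array 12 lay well above the rest. The means were 4.88 ± 0.86 in obese-father males, against 3.73 ± 0.21 in lean-parent males (SD, n = 4 each), and the log2 fold change was 1.16 (SE 0.33), or 2.23-fold, with an unadjusted p of 0.00209 and an adjusted p of 0.316 in limma. Pdia3 (ERp57), which works with the lectins on glycoproteins, measured 4.76, 4.81, 4.60 and 6.22 in obese-father males, against 3.61, 4.02, 5.74 and 3.10 in lean-parent males. Its log2 fold change was 0.98 (SE 0.59, adjusted p = 0.391), and lean-parent array 3 lay above 3 of the obese-father arrays while the rest of its group lay below all 4. Pdia4 (ERp72) spanned little: it averaged 3.40 ± 0.067 in obese-father males, against 3.25 ± 0.13 in lean-parent males (SD, n = 4 each), a log2 fold change of 0.15 with an adjusted p of 0.607 in limma. A second probe set of Pdia4, not used in the test, gave 3.29 and 3.10 for the same groups.

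The lectins hold glycoproteins in the folding cycle, calnexin (Canx) in the membrane and calreticulin (Calr) in the lumen. Canx measured 6.70, 6.84, 7.13 and 8.38 in obese-father males, against 4.12, 5.92, 7.84 and 3.92 in lean-parent males. As for Hsp90b1, lean-parent array 3 was the only one of its group within the obese-father range. The means were 7.26 ± 0.77 and 5.45 ± 1.83 in obese-father and lean-parent males (SD, n = 4 each), and the log2 fold change was 1.81 (SE 0.81, 3.52-fold, adjusted p = 0.325 in limma). Calr measured 4.71, 5.29, 5.42 and 6.38 in obese-father males, against 4.48, 5.18, 6.45 and 4.31 in lean-parent males. Lean-parent values lay below, among and above the obese-father values, and its log2 fold change was 0.35 with an adjusted p of 0.714.

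Of the transcription factors, Xbp1 alone had an unadjusted p under 0.05. It measured 2.86, 2.44, 2.72 and 3.48 in obese-father males, against 2.29, 2.50, 2.50 and 2.62 in lean-parent males. On 3 of the 4 obese-father arrays it lay above every lean-parent array. The log2 fold change was 0.39 (SE 0.15, 1.31-fold, adjusted p = 0.316 in limma). Xbp1 was dim: it lay above the table's median on only 9 of the 24 arrays, 3 of them of obese-father males and 1 of lean-parent males. Atf4, which drives amino acid and redox genes under stress, averaged 4.41 ± 0.17 in obese-father males, against 4.38 ± 0.20 in lean-parent males (SD, n = 4 each). Ddit3, which promotes cell death when stress lasts, averaged 3.71 ± 0.34 and 3.72 ± 0.11 in the same groups. Their log2 fold changes were 0.03 for Atf4 and -0.01 for Ddit3, with adjusted p of 0.936 and 0.987 in limma.

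**Figure D2:**
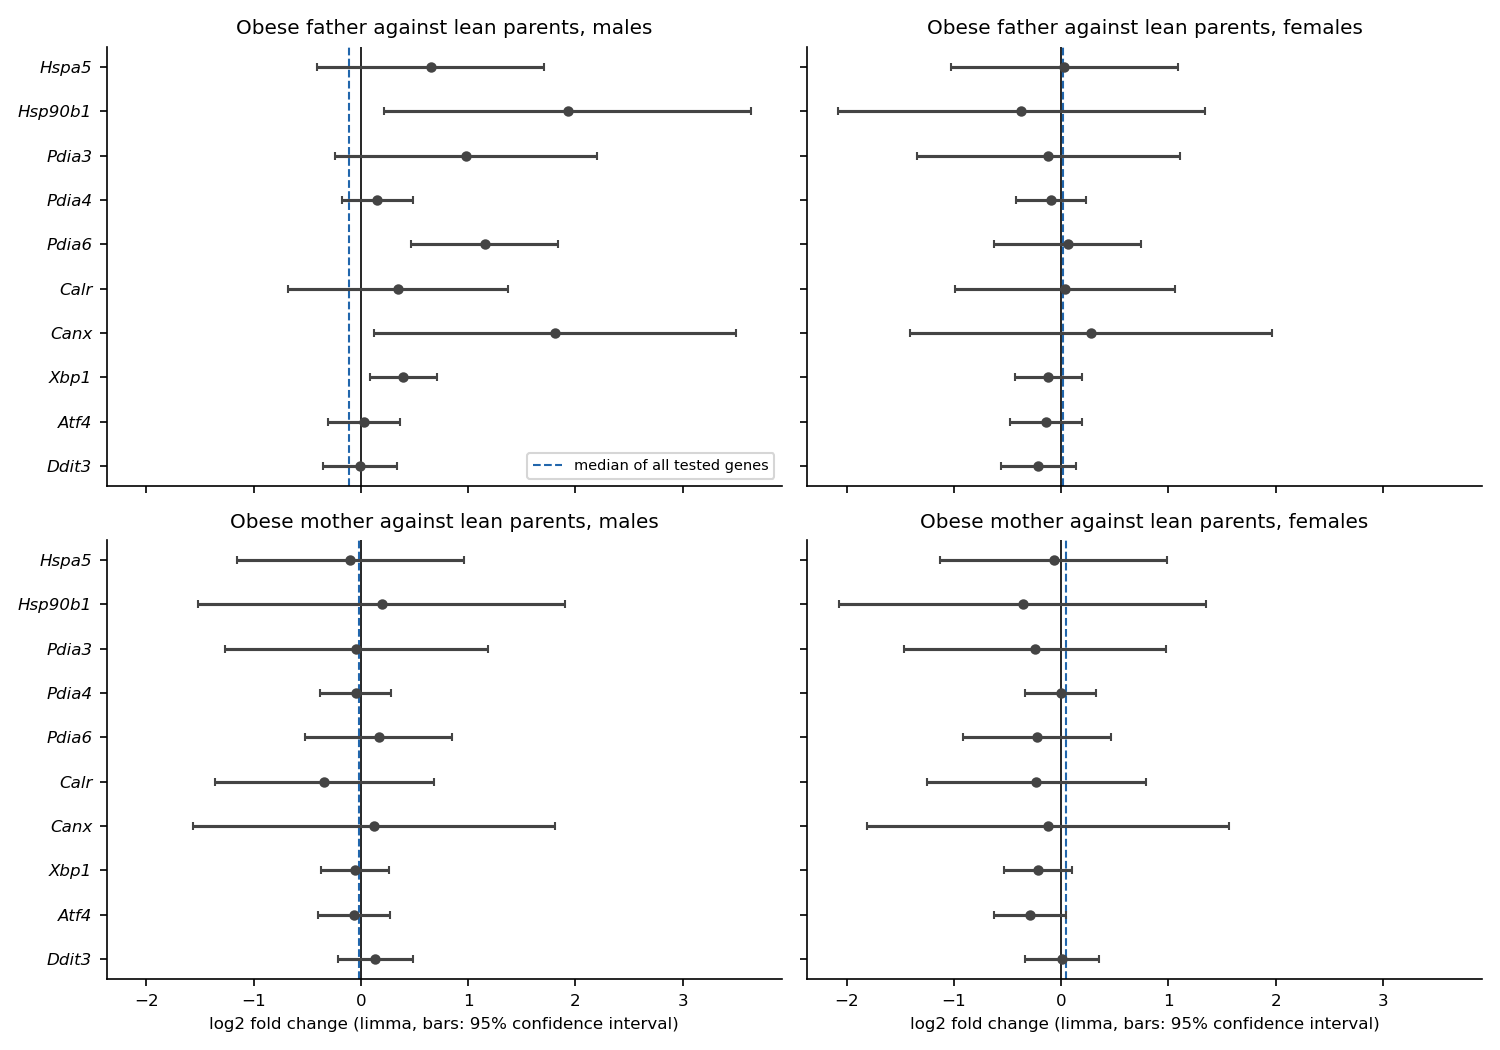
Log2 fold change of each member with its 95% interval from limma, for obese father minus lean parents and obese mother minus lean parents in males and females. In males the obese-father values of Hsp90b1, Pdia6, Canx and Xbp1 have intervals above 0, and none of them has an adjusted p under 0.05.

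Single arrays moved this comparison in both directions. Without obese-father male array 12 the log2 fold change was 0.77 for Pdia6, 0.19 for Xbp1, 0.28 for Hspa5, 0.61 for Pdia3 and 0.03 for Calr. It was 1.62 for Hsp90b1 and 1.44 for Canx, and the members' median was 0.24. Without lean-parent male array 3 it was 2.63 for Hsp90b1, 2.61 for Canx, 1.21 for Hspa5, 1.52 for Pdia3 and 0.79 for Calr, and the members' median was 0.998. Without lean-parent male array 4 it was 1.48 for Hsp90b1, 1.30 for Canx, 0.39 for Hspa5, 0.64 for Pdia3 and 0.08 for Calr, and without array 1 it was 0.14 for Calr. Array 12 had the second widest signal spread of all arrays, at 1.72. With the signal spread of each array as a covariate in the fit, the log2 fold change was 0.30 for Hsp90b1 (adjusted p = 0.907), 0.25 for Canx, 0.70 for Pdia6 (SE 0.28, adjusted p = 0.583) and 0.34 for Xbp1 (adjusted p = 0.682). Under the same covariate Hspa5 was at -0.24, Pdia3 at -0.18 and Calr at -0.56, the members' median was -0.06 against -0.02 for all genes, and 4 of 10 members were above 0. In that fit 2 members were higher at an unadjusted p under 0.05 and 0 were lower. Of all genes, 7.18% passed that level in either direction. Marker lists moved with the comparison too. The 7 markers of the inner cell mass and primitive endoderm averaged between 3.86 and 4.40 on the arrays of obese-father males, against 3.34 to 3.80 on those of lean-parent males, and the 7 of the trophectoderm between 4.58 and 5.30, against 4.29 to 4.86. The 11 markers of cumulus cells on the array averaged between 2.28 and 2.70 in obese-father males, against 2.55 to 2.95 in lean-parent males. The 5 of uterine and oviduct epithelium reached at most 2.46 in obese-father males, against at least 2.47 in lean-parent males. Their part in the result was not tested.

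In female embryos the means of obese-father and lean-parent pools differed little, while single pools of obese fathers ran from 4.02 to 8.30 for Hsp90b1 and from 5.60 to 8.87 for Canx. Log2 fold changes ranged from -0.37 to 0.28 with a median of -0.11, against 0.02 for all genes, and 4 of 10 were above 0, against 54.9% of genes. None had an adjusted p under 0.05 in limma, where 0% of genes did, and none an unadjusted p under 0.05, where 2.84% did. The groups did not overlap for Xbp1, against 0.413% of genes with all obese-father arrays lower. It measured 2.47, 2.50, 2.46 and 2.53 in obese-father females, against 2.61, 2.65, 2.61 and 2.57 in lean-parent females. The difference of -0.12 had an adjusted p of 0.9997 in limma. Array 22 of the obese-father females, which had the widest signal spread of all arrays at 1.81, held the highest female value of Hsp90b1 (8.30), Canx (8.87), Pdia3 (6.18), Pdia6 (5.32), Hspa5 (6.06) and Calr (6.45). Without that array the members' median in this comparison was -0.37, and leaving out any other array gave medians up to 0.12.

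The difference of the obese-father effect between the sexes, male minus female, was tested directly. It was above 0 for all 10 members, against 32.6% of genes. At an unadjusted p under 0.05 it was higher for 2 members, against 1.86% of genes: 1.09 for Pdia6 (SE 0.47) and 0.51 for Xbp1 (SE 0.21). Their adjusted p was 0.654 in limma, where 0 of 13311 genes passed and 7.54% had an unadjusted p under 0.05. The members' median was 0.57. With the signal spread as a covariate 7 of 10 were above 0 and the median was 0.058, with 0.66 for Pdia6 and 0.46 for Xbp1. In that fit 1 member was higher at an unadjusted p under 0.05, where 9.87% of genes passed that level in either direction. Without obese-father male array 12 the difference was 0.71 for Pdia6 and 0.31 for Xbp1. Within obese-father embryos all 10 members had higher means in males than in females, against 35.3% of genes, and 8 of 10 with the covariate. As deposited, Xbp1 was the 1 member with an unadjusted p under 0.05, against 1.47% of genes that were higher at that level. It differed by 0.38 (adjusted p = 0.843), or by 0.18 without array 12. The adjusted threshold was passed by 0 of 10 members and 0.00751% of genes. With the covariate 2 members were higher at an unadjusted p under 0.05, where 10.0% of genes passed that level in either direction.

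Within lean-parent embryos 2 of 10 members were above 0 in males minus females, against 62.6% of genes. Pdia6 was the 1 member without overlap, against 0.481% of genes with all males lower. It averaged 3.73 ± 0.21 in males and 4.26 ± 0.17 in females (SD, n = 4 each), a difference of -0.53 with an adjusted p of 0.992 in limma. No member had an unadjusted p under 0.05, against 3.37% of genes. These lean-parent males are the same arrays that the obese-father and the obese-mother males are set against. Within obese-mother embryos 3 of 10 members were above 0 in males minus females, against 47.3% of genes, and none had an unadjusted p under 0.05, against 1.41% of genes.

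For obese mothers the members were spread around the lean-parent values in males as deposited. Log2 fold changes ranged from -0.34 to 0.20 with a median of -0.04, against -0.01 for all genes. The members' median ran from -0.19 to 0.16 when 1 array was left out. Of the 10 members 4 were above 0, against 46.1% of genes. None had an adjusted p under 0.05 in limma, where 0% of genes did, nor an unadjusted p under 0.05, where 1.70% did. With the signal spread as a covariate 2 of 10 were above 0, with a median of -0.20 against 0.007 for all genes. In that fit 1 member was lower at an unadjusted p under 0.05, where 4.92% of genes passed that level in either direction. Hsp90b1 measured 4.29, 6.35, 4.01 and 6.69 in obese-mother males, so that arrays 6 and 8 lay far above arrays 5 and 7. Canx split the same way, with 6.42 and 6.96 on arrays 6 and 8 and 3.85 and 5.05 on arrays 5 and 7 of the same group. Pdia6 measured 3.87, 3.70, 3.68 and 4.33 there, and 3 of these 4 values lay within the range of the lean-parent males.

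In female embryos of obese mothers 1 of 10 members was above 0 against lean parents, where 61.7% of genes were, and the members' median was -0.22 against 0.05. With the signal spread as a covariate the direction was the opposite, with 7 of 10 above 0 and a median of 0.082. Leaving out 1 array gave medians from -0.31 to 0.00093, the highest without obese-mother array 19. None had an adjusted p under 0.05 in limma, where 0% of genes did, nor an unadjusted p under 0.05, where 2.19% did. Xbp1 measured 2.47, 2.41, 2.34 and 2.36 in obese-mother females, against 2.61, 2.65, 2.61 and 2.57 in lean-parent females. All obese-mother arrays lay below all lean-parent arrays, a pattern of 0.639% of genes, and the difference was -0.22. The lean-parent females are the arrays against which obese-father females were also lower in Xbp1, so the 2 values share them. All 4 lean-parent female arrays lay above the table's median for Xbp1, and 0 of the 8 arrays of the other female groups did. That median, 2.56, fell between the lowest lean-parent value, 2.57, and the highest of the others, 2.53. The count therefore repeats the 2 patterns without overlap and adds no further result. The difference of the obese-mother effect between the sexes was above 0 for 7 of 10 members, against 39.4% of genes, and none had an unadjusted p under 0.05, against 2.58% of genes. Its median over the members was 0.18 as deposited and -0.35 with the spread as a covariate, where 4 of 10 were above 0.

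Set against each other without the lean-parent arrays, obese-mother males had lower means than obese-father males for 9 of 10 members, with 1 above 0, against 65.1% of genes above 0. The members' median was -0.72, against 0.09 for all genes. Once the spread was a covariate it was -0.17, against 0.03 for all genes. In that fit 2 members were lower at an unadjusted p under 0.05, where 5.66% of genes passed that level in either direction. As deposited, 4 members were lower at an unadjusted p under 0.05, against 2.08% of genes, and 0 of 10 passed the adjusted threshold, where 0.00751% of genes did. The log2 differences were -1.73 for Hsp90b1 (SE 0.82), -0.99 for Pdia6 (SE 0.33), -1.69 for Canx (SE 0.81) and -0.45 for Xbp1 (SE 0.15), each with an adjusted p of 0.573 in limma. With the signal spread as a covariate they were -0.59, -0.67, -0.60 and -0.41 in the same order. Without obese-father array 12 they were -1.43, -0.60, -1.32 and -0.25, and the members' median was -0.38. The signal spread averaged 1.43 ± 0.104 in obese-mother males and 1.56 ± 0.105 in obese-father males (SD, n = 4 each, exact permutation test, two-sided, p = 0.229). The markers of cumulus cells averaged between 2.63 and 2.88 on obese-mother male arrays, against 2.28 to 2.70 on obese-father male arrays, and the part of these markers in the result was not tested. In females 3 of 10 members were above 0, against 55.5% of genes, and the members' median was -0.11 against 0.03, or 0.21 without obese-father array 22. With the signal spread as a covariate 7 of 10 were above 0 with a median of 0.19. In that fit 1 member was higher at an unadjusted p under 0.05, where 4.53% of genes passed that level in either direction. After quantile normalization the median was 0.013. As deposited, none had an adjusted p under 0.05, where 0% of genes did, nor an unadjusted p under 0.05, where 3.25% did. Ddit3 measured 3.48, 3.79, 3.60 and 3.67 in obese-mother females, against 3.47, 3.44, 3.34 and 3.40 in obese-father females. The lowest of the obese-mother values lay just above the highest of the obese-father values, a pattern of 0.917% of genes, and the difference was 0.22 with an adjusted p of 0.975.

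Across all 24 arrays the folding genes followed the signal spread closely. Pearson's r with the spread was 0.925 for Hsp90b1 (Spearman's rho 0.884), 0.923 for Pdia3 (0.877), 0.889 for Canx (0.855), 0.836 for Calr (0.862) and 0.827 for Hspa5 (0.772). Their permutation p was 1e-05 in every case, which is the smallest 100000 permutations allow, or 2e-05 adjusted over the 10 relations. Leaving out the 2 arrays with the most extreme spread gave an r of 0.918, 0.877, 0.855, 0.733 and 0.733 in the same order. On deviations from the group means r was 0.929 for Hsp90b1, 0.928 for Pdia3, 0.905 for Canx, 0.867 for Calr and 0.827 for Hspa5, so the relation held within the groups. The spread is larger where bright genes stand further above dim ones, so a relation of this sign is partly built in for bright genes. Of the genes tested, whose median r was -0.418, 94.8% had a lower r than Hspa5 and 99.4% a lower r than Hsp90b1. By the same measure 81.5% had a lower r than Atf4, 80% than Xbp1 and 75.1% than Ddit3. An array with a spread 0.1 wider had a level of Hsp90b1 higher by 0.915 log2 units.

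**Figure D3:**
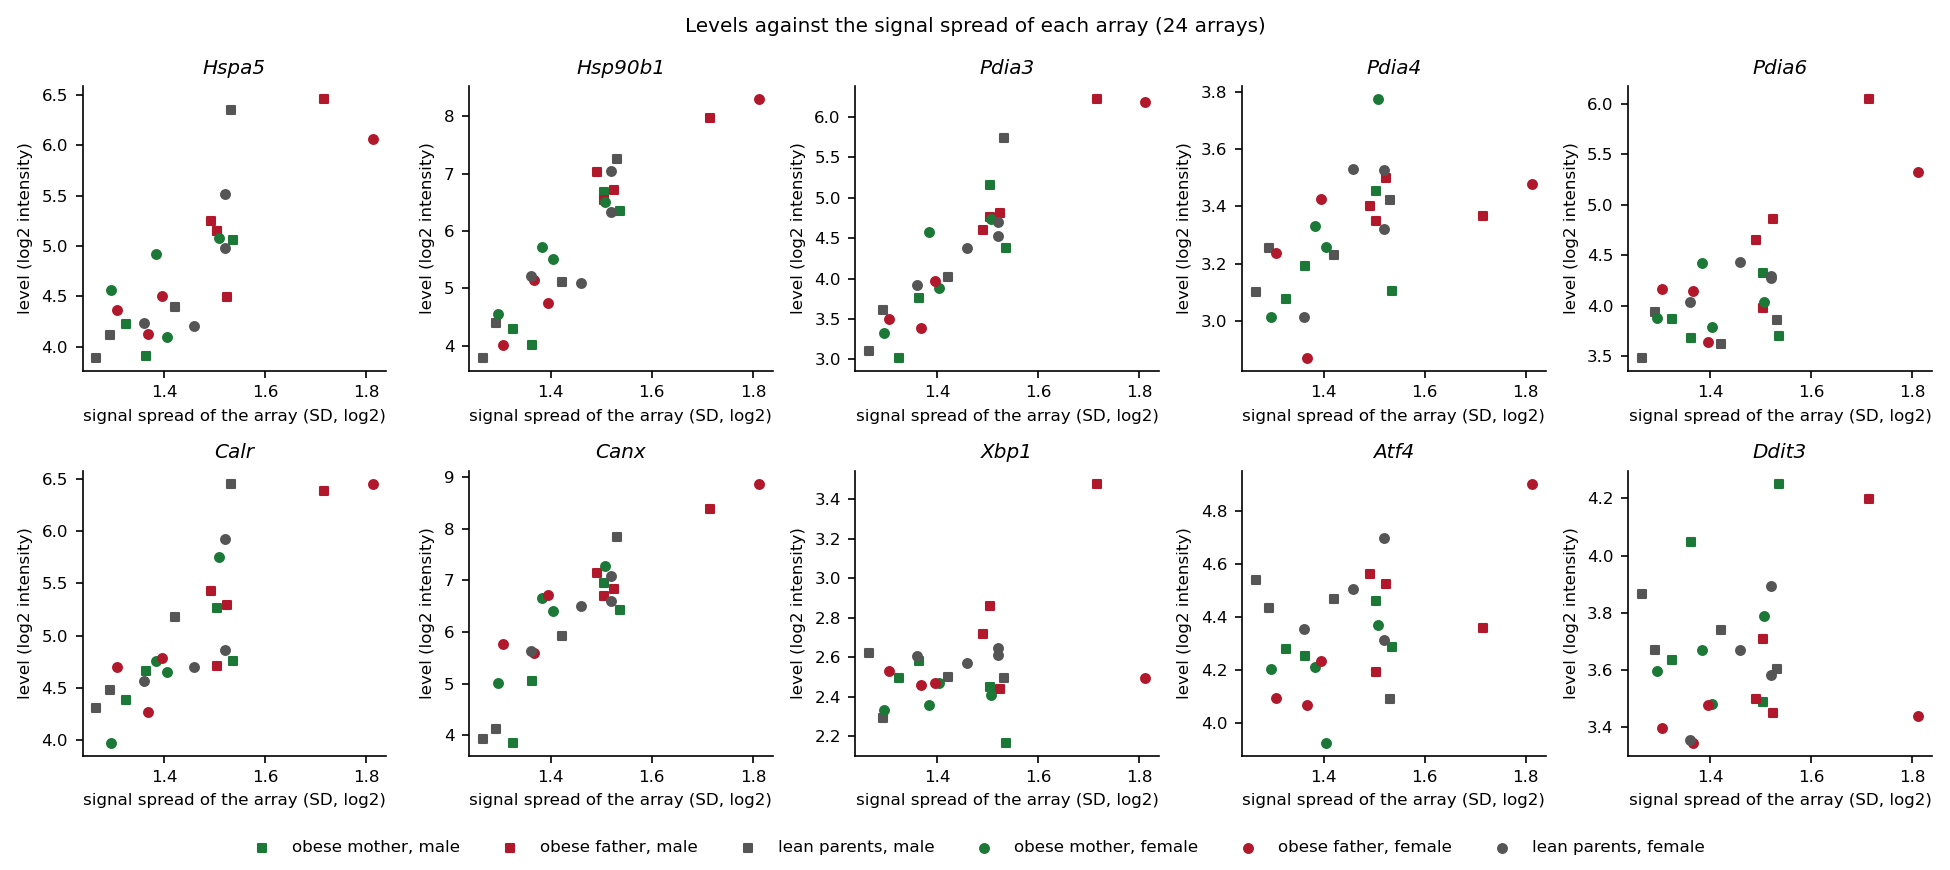
Log2 level of each member against the signal spread of the array (SD of all log2 values, without the members' probe sets), 1 point per array, marked by parents and sex. Hsp90b1, Pdia3 and Canx lie close to a line (r from 0.889 to 0.925), while Ddit3 (r 0.195) and Xbp1 (r 0.400) do not.

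The other members followed the spread less. For Pdia6 r was 0.730 (permutation p = 0.00018, adjusted 0.0003) and rho 0.463 (permutation p = 0.0238, adjusted 0.0340). On deviations from the group means r was 0.656. It was 0.424 without the 2 farthest arrays (adjusted p = 0.0702), so the relation was weaker without those arrays. For Pdia4 r was 0.553 (rho 0.627, permutation p = 0.00493, adjusted 0.00704) and 0.628 without them. For Atf4 r was 0.462 (permutation p = 0.0246, adjusted 0.0307) and rho 0.274 (permutation p = 0.194). Its r was 0.224 without the 2 farthest arrays (adjusted p = 0.394), so this relation was weaker without them too. For Xbp1 r was 0.400 (rho 0.111, permutation p = 0.0607, adjusted 0.0675) and for Ddit3 0.195 (rho 0.177, permutation p = 0.361). Among the isomerases, then, r ran from 0.553 for Pdia4 to 0.923 for Pdia3.

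The 7 folding genes (chaperones, isomerases and lectins) also varied together. Over the 24 arrays, which share the signal spread, Pearson's r of their 21 pairs ranged from 0.366 to 0.925 with a median of 0.714. Once the spread was regressed out of each gene, the same pairs ranged from -0.065 to 0.614 with a median of 0.318, and 19 of 21 stayed above 0. Pairs of genes outside the members were not computed, so no share over other genes stands beside this count. Hspa5 and Pdia3 had the highest remaining value, at 0.614, followed by Hspa5 and Hsp90b1 (0.569) and Pdia3 and Canx (0.547). The transcription factors did not vary with each other in the same degree, with r from 0.098 to 0.284 between them. Of the 21 pairs of a folding gene with a transcription factor the median was 0.332 as deposited and -0.044 without the spread. Without the spread, the highest of these was Pdia6 with Xbp1, at 0.494 (0.601 as deposited), and the lowest Canx with Atf4, at -0.393 (0.251 as deposited).

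**Figure D4:**
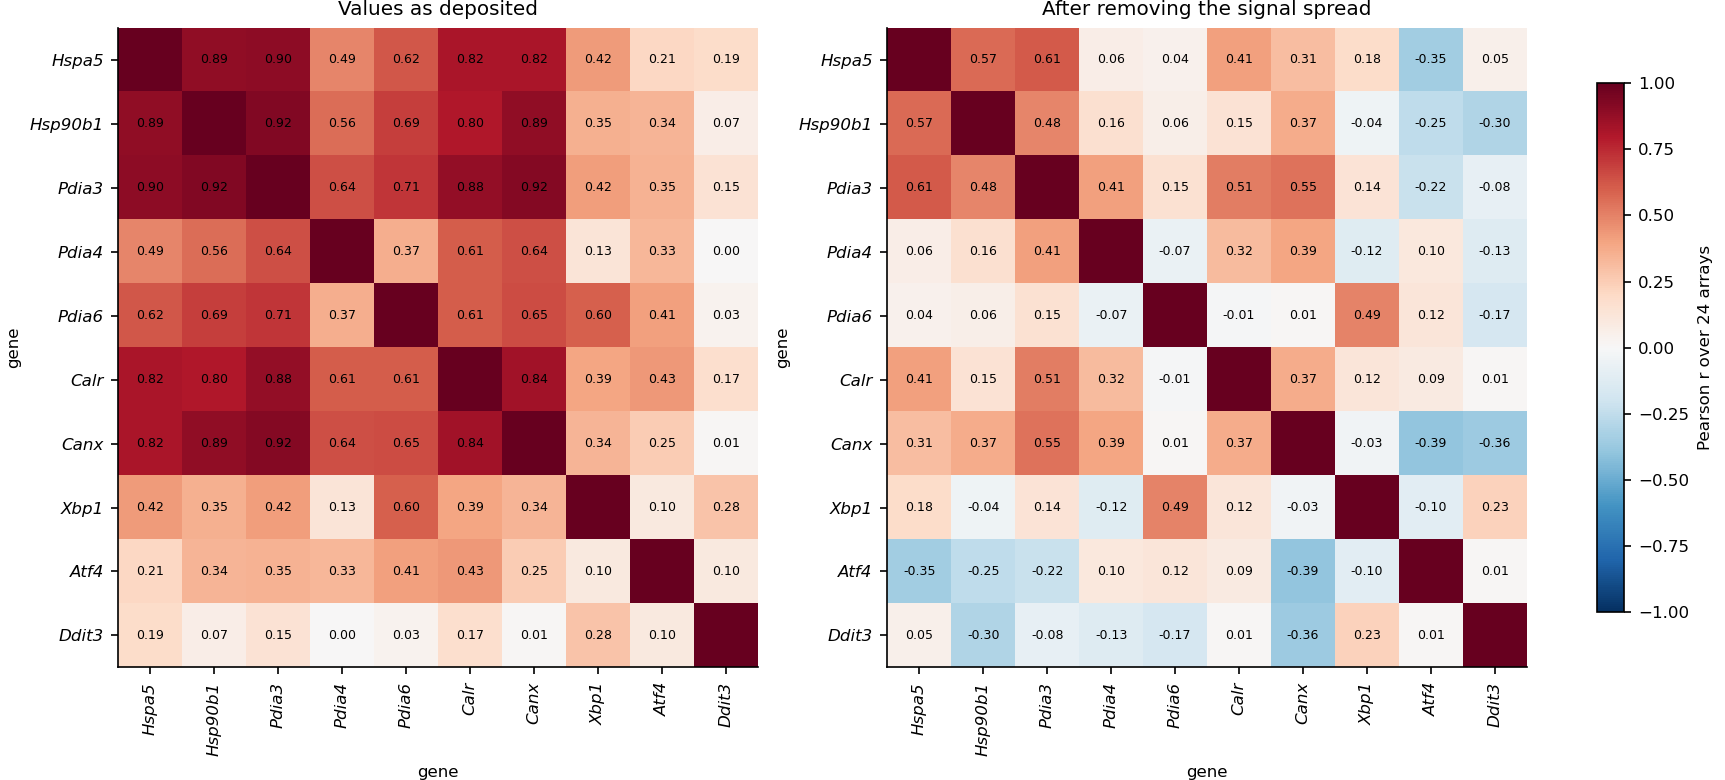
Pearson's r between members over 24 arrays, as deposited on the left and after the signal spread was regressed out on the right, with members ordered by role. The block of 7 folding genes is high on the left (median 0.714) and lower on the right (median 0.318).

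The genes outside the lists whose pattern over the 24 arrays was most like the mean of the 7 folding genes were Ttc1 (r 0.953), Taf15 (0.950), Tma7 (0.947), Psmc1 (0.946) and Rpl8 (0.946), of 13213 genes compared, and 82 genes had an r of at least 0.9. The folding mean itself had an r of 0.940 with the signal spread. After the spread was regressed out the most alike were Mir181c (0.720), Ttc1 (0.700), Tenm4 (0.648), Tma7 (0.648) and Spcs3 (0.643).

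In obese-father males against lean-parent males the 6 ER lists had medians from -0.25 to 0.41, against 0.52 for the members. The 54 tested genes of the members and 6 ER lists, of 67 listed, lay around 0, with 26 above it and a median of -0.01 on the log2 scale. The members are 10 of these 54. Among all genes tested 33.3% were above 0. At an unadjusted p under 0.05, 6 of the 54 were higher, 4 of them members, against 4.30% of all genes, and 3 were lower, against 10.4%, while 0 passed the adjusted threshold in limma. Of 9 tested chaperones and co-chaperones of the ER, of 10 listed, 5 were above 0 with a median of 0.41, and the values with the smallest p were 0.55 for Dnajc10, a co-chaperone that reduces disulfides (adjusted p = 0.342), 0.41 for Manf, a secreted factor that binds Hspa5 (0.373), and -0.28 for Hyou1, a nucleotide exchange factor (0.375). Of 8 other oxidoreductases 2 were above 0, with a median of -0.07, and P4hb, the classical disulfide isomerase, was at 0.82 (adjusted p = 0.389), Tmx1 at 0.60 (0.555) and Txndc5 at -0.17 (0.459). Of 5 genes of the lectin cycle 3 were above 0, with a median of 0.12. The glucosidase subunits Ganab (0.46, adjusted p = 0.390) and Prkcsh (-0.28, 0.369) lay on opposite sides of 0, and the mannosidase Man1b1 was at 0.19 (0.517).

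The sensors, the genes of the Atf4 and Ddit3 branch and the degradation genes are read against the same background, in which 33.3% of all genes were above 0 and the median was -0.11. Of 4 tested sensors and their proteases, of 6 listed, 0 were above 0 and the median was -0.25. Atf6b, a relative of the sensor Atf6, averaged 2.88 in obese-father males, against 3.28 in lean-parent males (-0.40, adjusted p = 0.316 in limma), Atf6 itself was at -0.25 (0.389) and Ern1, which encodes IRE1, at -0.25 (0.403). Of 11 tested genes of the Atf4 and Ddit3 branch, 3 were above 0 with a median of -0.11. Asns, asparagine synthetase, averaged 3.61 in obese-father males, against 2.94 in lean-parent males (0.67, adjusted p = 0.330), while Ppp1r15a, which restores translation after stress, was at -0.30 (0.345) and Sesn2 at -0.33 (0.398). Of 7 tested genes of ER-associated degradation, the disposal route for misfolded proteins, 4 were above 0 with a median of 0.11. Os9, a lectin of that route, averaged 2.57 ± 0.17 in obese-father males, against 3.08 ± 0.23 in lean-parent males (SD, n = 4 each; -0.51, adjusted p = 0.316), and the channel proteins Derl3 and Derl1 were at -0.41 (0.332) and 0.46 (0.335).

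Chaperones of the cytosol were listed for comparison, and no difference between lists was tested. Against 33.3% of all genes above 0 and a median of -0.11, of 8 tested cytosolic HSP70 and HSP90 genes 7 were above 0 with a median of 0.87, led by Hsp90aa1, which averaged 9.61 in obese-father males, against 7.35 in lean-parent males (2.26, adjusted p = 0.316 in limma), Hspa8 (1.87, 0.322) and their partner Dnaja1 (1.95, 0.353). Of 8 subunits of the cytosolic chaperonin, which folds actin and tubulin, 8 were above 0 with a median of 1.23. Cct7 averaged 5.79 in obese-father males, against 4.09 in lean-parent males (1.71, adjusted p = 0.316), with Cct6a at 1.67 (0.339) and Tcp1 at 1.41 (0.379). None of these genes passed the adjusted threshold. The 54 genes of the members and ER lists were also compared with lean parents in the other groups. Their median was 0.04 for obese-father females, against 0.02 for all genes, and -0.02 for obese-mother males, against -0.01. For obese-mother females 27 of the 54 were above 0, against 61.7% of all genes. The 8 chaperonin subunits had a median of -0.09 in obese-father females, 0.28 in obese-mother males and -0.35 in obese-mother females. In obese-mother females 0 of the 8 subunits were above 0, against 61.7% of all genes. None of the 8 had an unadjusted p under 0.05 there, against 2.19% of genes.

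**Figure D5:**
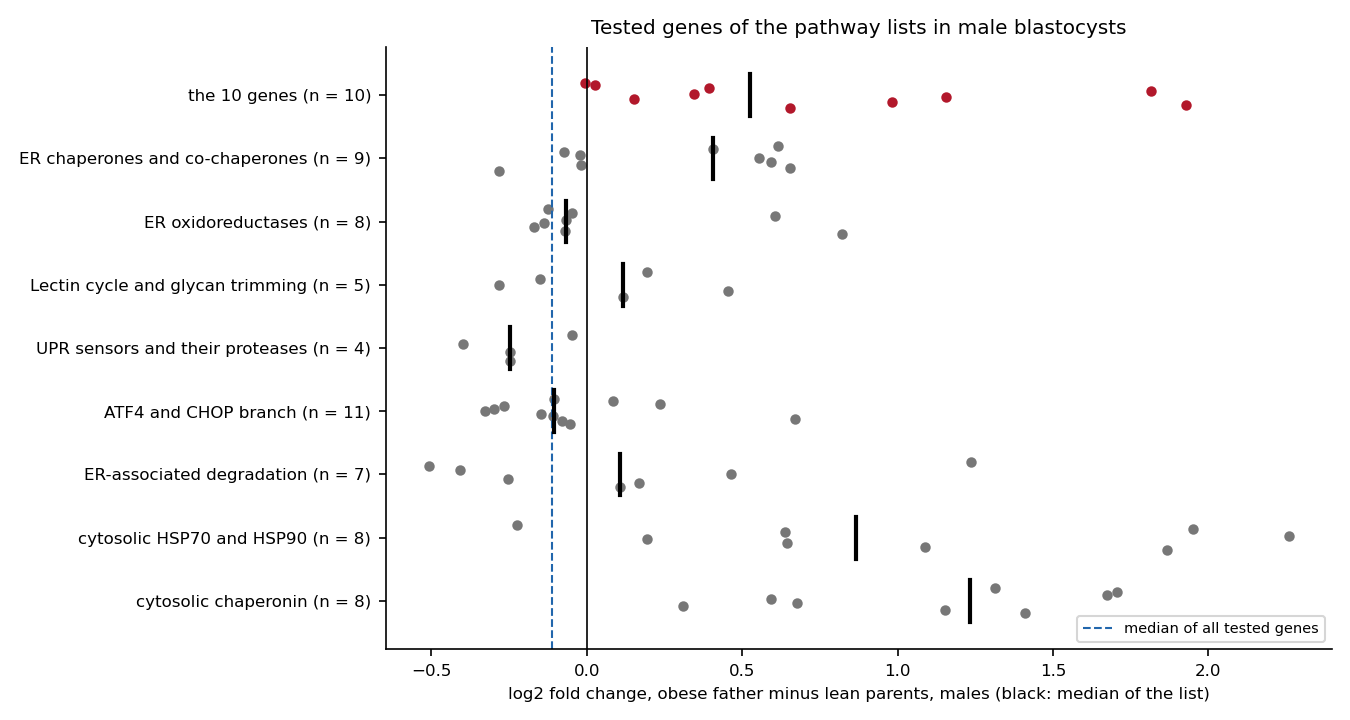
Log2 fold change of the members and of each listed gene in obese father minus lean parents in males, grouped by list, with 1 point per gene and the median of each list as a bar. The cytosolic chaperonin (median 1.23) and the cytosolic HSP70 and HSP90 genes (0.87) lie highest, the members at 0.52, and the sensors (-0.25) lowest.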

How the data were processed

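Blastocyst pools were amplified and labelled with NuGEN kits and hybridised 1 per array, per the labels' protocols. The deposited table holds log2 intensities of 35556 probe sets on 24 arrays, which the authors computed by RMA with affy, per the submitters' processing notes. Their versions, genome build and probe set definition were not given in the sources used here. Of the probe sets 21789 had 1 gene symbol in GEO's platform annotation, 1621 several and 12146 none, and sets with several or none were not used. For the 999 genes with several probe sets the one with the highest mean was used. Genes above the table's median on fewer than 4 arrays (6627) were not tested.

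A mean for each of the 6 groups, taken from the titles, was fitted to all arrays in R 4.3.3 using limma 3.58.1, with no covariate (functions lmFit and eBayes), and p-values were adjusted by Benjamini-Hochberg over the 13311 genes tested, with a threshold of 0.05, two-sided. The fit was tested on simulated data. Exact permutation tests compared the mean signal spread of 2 groups of 4 arrays, and relations over 24 arrays were tested with 100000 random permutations. The comparisons with lean parents share the lean-parent arrays. Named genes are the 10 members, up to 3 genes of each list with the smallest unadjusted p in obese-father males, and the 5 genes most like the folding mean. Other genes are named where a count of 1 turns on them. The members, lists and tests were chosen with earlier results of these data known. Promoters and their coordinates come from RefSeq (GRCm38.p6). Alternatives were array weights, a robust prior with a trend, the signal spread as a covariate, centring, quantile normalization, other filters on dim genes, averaged probe sets, fits of the compared groups alone, leaving out arrays, and a threshold of 0.1. The number of arrays limits the precision.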

Additional observations from a re-analysis of the deposited data

Results flagged for a closer look

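A single array stood apart from the other 3 of its group for 2 members, by Dixon's ratio of the gap to the nearest array over the group's range, at its 95% critical value. Pdia3 in obese-father males was highest on array 12 at 6.22, with the others between 4.60 and 4.81 (gap over range 0.869). Atf4 in obese-mother males was highest on array 8 at 4.46, with the others between 4.25 and 4.29 (0.838). In all, 60 groups of 4 arrays were examined, and chance alone marks about 1 in 20 groups.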

How the results depend on the processing

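No member passed an adjusted p of 0.05 in the comparisons of obese and lean parents, or of obese mothers and fathers, under any alternative tried. In obese-father against lean-parent males, the log2 fold change took the opposite sign with the signal spread as a covariate for Hspa5 (-0.24), Pdia3 (-0.18), Pdia4 (-0.015), Calr (-0.56) and Atf4 (-0.11), with arrays centred on their medians for Ddit3 (0.078) and after quantile normalization for Atf4 (-0.19). The cause was not tested. Leaving out 1 array gave a range from -0.071 to 0.10 for Atf4 and from -0.17 to 0.082 for Ddit3, and ranges on 1 side of 0 for the other 8 members, the widest for Canx (1.30 to 2.61). Centring left the medians at 0.61 for the members and -0.03 for all genes, and quantile normalization at 0.43 and -0.08. Over all genes, the 1 gene called in that comparison became 0 with the stricter filter or the 2 groups alone and 2 with array weights or the covariate, and ranged from 0 to 2 without 1 array. The 1 gene called in obese-mother against obese-father males became 0 with the stricter filter, the covariate, the 2 groups alone or without the 2 arrays of the widest spread, 2 with array weights, and 0 to 2 without 1 array. The 1 gene called between obese-father males and females became 0 with the stricter filter, centring or the 2 groups alone, 4 with the covariate, and 0 to 1 without 1 array. In the difference of the obese-father effect 0 became 2 with the covariate, and without 1 array 0 became 0 to 1 for obese-father against lean-parent and obese-mother against obese-father females. Without the 2 arrays farthest in spread, r was 0.424 for Pdia6 and 0.224 for Atf4. The stricter filter removed Xbp1 and gives no value for it. Dim genes such as Xbp1 are limited by signal over background. No paired analysis was possible because the labels tie no pool to a mother or father. The array numbers in the titles run from 1 to 24 and no groups share one.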
